A study of Rattus norvegicus with 9 samples.

Results

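Kidney transcripts of untreated spontaneously hypertensive rats (SHR) were compared with those of Wistar-Kyoto rats (WKY). A gene entered the comparison when 3 or more of the 6 libraries reached 1 FPKM, which 12875 of 19367 genes did. FPKM counts fragments per kilobase of a transcript and is scaled to the depth of the library. SHR are an inbred line in which blood pressure rises with age without surgery, drugs or added salt, and WKY are the normotensive line bred from the same colony. Per the labels, rats of both lines were 3 months old at the start and received distilled water by mouth for 8 weeks, with 3 libraries for each line. Other label fields disagree, with saline as the treatment and WKY as the strain of all libraries, so the titles were used to assign the lines. The labels give neither sex nor blood pressure, and carry no transgene, mutation or surgery for either line. Another group, 3 libraries from SHR given dapagliflozin at 10 mg/kg per day for the same 8 weeks, entered the fit only to share the estimate of spread. The labels name 3 rats for each group but do not tie a library to an animal, so every p-value measures the spread between libraries, which may be technical.

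The kidney sets long-term blood pressure through how much sodium and water its tubules return to the blood, under control of hormones such as angiotensin and aldosterone, local peptides such as the kinins, nerve signals and lipid mediators. The proximal tubule, which makes up most of the cortex, also burns fatty acids, takes up filtered protein into lysosomes, and conjugates drugs and waste products. An inbred line carries fixed variants across its genome, some close to genes whose transcripts they alter, so a contrast of 2 lines shows differences of breeding and of pressure together. These cannot be told apart here, because line and pressure go together by design.

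The genes whose start regions are shown first are those of the pairs discussed under neighbouring genes: Rexo5 with Eri2, and Tmem169 with Pecr. In each pair the genes start back to back on opposite strands, so that their start windows overlap, and both transcripts were more abundant in SHR. The windows run from 250 bases before to 50 bases after the annotated start, 5′ to 3′ on the strand of the gene, from RefSeq on build GRCr8; capitals mark the bases that the members of a pair share. Acsm3, in the same run as Rexo5 and Eri2 and with the largest rise in it, is shown for contrast and has no capitals. The windows are those of the reference assembly, not of SHR or WKY.
Rexo5, chr1:183599805-183600104, plus strand: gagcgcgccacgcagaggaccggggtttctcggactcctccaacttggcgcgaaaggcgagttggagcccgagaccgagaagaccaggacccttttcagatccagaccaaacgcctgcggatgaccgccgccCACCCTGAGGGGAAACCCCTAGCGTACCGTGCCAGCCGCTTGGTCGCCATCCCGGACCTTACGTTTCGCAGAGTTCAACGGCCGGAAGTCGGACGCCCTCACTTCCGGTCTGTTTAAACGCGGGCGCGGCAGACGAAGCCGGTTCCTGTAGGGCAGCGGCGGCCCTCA
Eri2, chr1:183599937-183600236, minus strand: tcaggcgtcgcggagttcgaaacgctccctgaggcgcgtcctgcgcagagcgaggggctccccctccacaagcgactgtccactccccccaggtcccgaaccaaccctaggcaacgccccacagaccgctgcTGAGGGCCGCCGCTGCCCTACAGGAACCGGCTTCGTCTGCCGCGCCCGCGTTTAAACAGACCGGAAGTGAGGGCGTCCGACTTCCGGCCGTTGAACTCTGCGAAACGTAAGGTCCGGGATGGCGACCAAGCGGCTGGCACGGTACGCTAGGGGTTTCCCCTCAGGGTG
Tmem169, chr9:81375613-81375912, plus strand: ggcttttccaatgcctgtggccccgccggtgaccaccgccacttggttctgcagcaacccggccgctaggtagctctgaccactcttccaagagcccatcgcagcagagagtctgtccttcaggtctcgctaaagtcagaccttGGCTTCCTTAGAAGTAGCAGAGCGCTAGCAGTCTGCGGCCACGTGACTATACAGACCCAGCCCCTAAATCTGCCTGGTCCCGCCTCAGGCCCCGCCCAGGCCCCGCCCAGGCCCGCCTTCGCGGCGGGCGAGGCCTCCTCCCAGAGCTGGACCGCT
Pecr, chr9:81375757-81376056, minus strand: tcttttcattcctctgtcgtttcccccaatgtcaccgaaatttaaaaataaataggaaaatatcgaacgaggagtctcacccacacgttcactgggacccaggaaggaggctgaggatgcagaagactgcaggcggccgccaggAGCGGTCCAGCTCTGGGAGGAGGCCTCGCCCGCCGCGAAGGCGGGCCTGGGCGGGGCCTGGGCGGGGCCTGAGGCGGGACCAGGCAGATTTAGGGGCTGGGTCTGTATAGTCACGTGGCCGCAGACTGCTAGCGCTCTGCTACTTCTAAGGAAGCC
Acsm3, chr1:183564402-183564701, plus strand: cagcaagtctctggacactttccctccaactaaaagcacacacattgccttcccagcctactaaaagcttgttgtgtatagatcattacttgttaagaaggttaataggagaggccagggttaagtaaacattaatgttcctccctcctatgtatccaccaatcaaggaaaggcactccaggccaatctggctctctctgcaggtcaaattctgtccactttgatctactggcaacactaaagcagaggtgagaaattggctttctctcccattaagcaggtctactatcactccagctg

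Kidney markers were high in every library. Summed FPKM lay between 563643 and 589838, and the depth in reads is unknown. Across genes, libraries of the same line correlated at 0.977 to 0.989 and libraries of different lines at 0.960 to 0.979 (Pearson's r of log2 values; genes are not independent replicates). Uromodulin (Umod), the main protein of the thick ascending limb, lay between 2107 and 4616 FPKM, and the phosphate carrier Slc34a1 of the proximal tubule between 1177 and 1835 FPKM. Marker lists of neighbouring tissues were low: the summed FPKM was at most 6.7 for adrenal gland, 66.5 for adipose tissue, 39.7 for liver, 1.75 for skeletal muscle and 1.31 for urothelium, whose keratin Krt5 was at 0 in all 6 libraries. Some segment markers varied within a line. Slc5a2, the glucose carrier of the early proximal tubule, was at 9.75, 70.2 and 43.5 FPKM in WKY and 42.9, 23.7 and 2.69 FPKM in SHR, and Slc5a12, a lactate carrier of the same segment, was likewise lowest in WKY library 1 and SHR library 3. In WKY library 1 the mean marker levels of podocyte, endothelial cell and collecting duct principal cell were the lowest of the 6 libraries. The same held for intercalated cell, thick ascending limb, distal convoluted tubule, inner medulla, and smooth muscle and mesangial markers. Its late proximal tubule level was the highest of the 6.

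Between the lines, 389 genes differed at an adjusted p under 0.05 (limma on log2(FPKM + 1), Benjamini-Hochberg over all 12875 genes), which is 3.02% of those tested. Of these, 241 were higher in SHR (1.87% of genes tested) and 148 lower (1.15%), so 61.95% of calls were rises. That split depends on the scaling: it was 52.28% rises when the FPKM columns were rescaled by the median of ratios and 49.77% after quantile normalization, and the median log2 change of all genes was 0.07 as deposited. A change of at least 2-fold was seen for 169 genes (1.31%), of at least 4-fold for 54, and under 1.5-fold for 93. Called genes were spread over all levels, with 3.36% of genes under 5 FPKM called, 3.24% between 5 and 20, 2.71% between 20 and 100, and 1.82% at 100 FPKM or more.

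The 3 WKY and the 3 SHR libraries did not overlap for any called gene, but the same held for 3655 genes, or 28.4% of all tested (20.2% higher in SHR and 8.22% lower). Of the 389 calls, 151 held with each of the 9 libraries left out in turn, and 111 of these were changes of at least 2-fold. Without WKY library 1, WKY library 3, SHR library 1, SHR library 2 or SHR library 3, 201, 169, 170, 192 and 213 genes were called, and without treated SHR library 1, 618. Below, the call of a gene given by name held under each of these omissions unless libraries are named beside it; calls given only as counts include some that did not. A gene that reached 1 FPKM in the libraries of 1 line alone entered the test through the line where it is high, so it had to differ: this was so for 91 genes through SHR, 38 of them called, and 52 through WKY, 25 of them called. Such genes are marked below as tested through 1 line alone and their values are a description, with no p. The 95% interval of the log2 change lay within ±0.5 for 7310 genes (56.78%), so for most transcripts a difference of that size or more lies outside the interval.

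**Figure D1:**
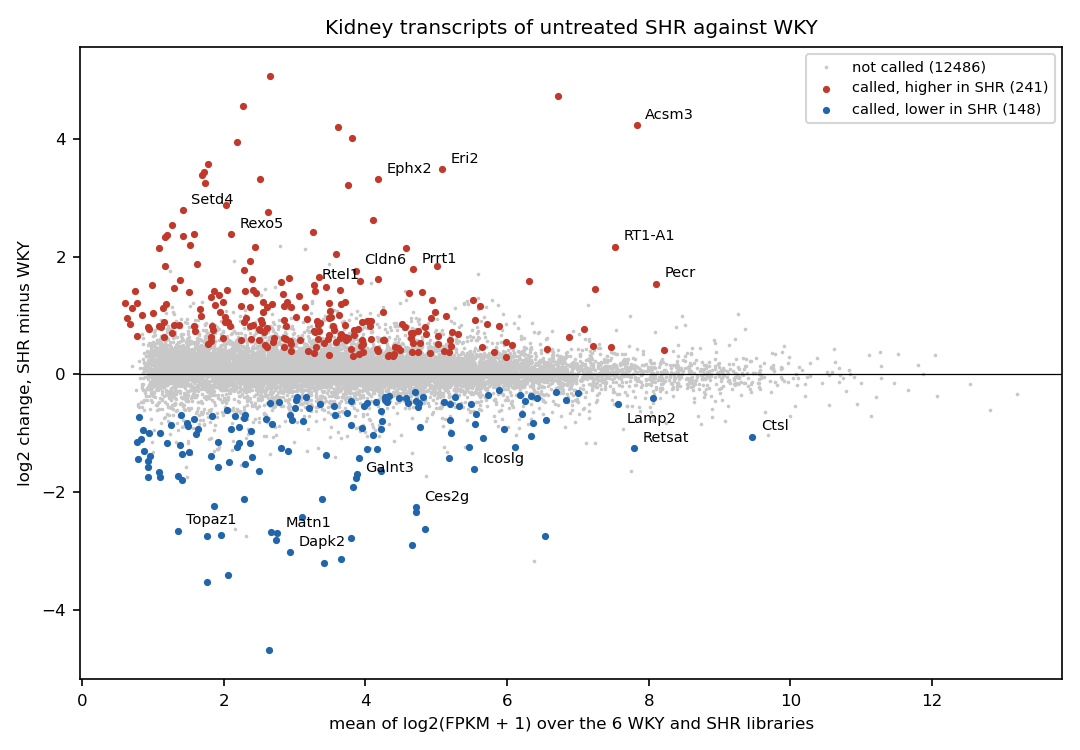
Log2 change (SHR minus WKY, vertical) against the mean log2(FPKM + 1) of the 6 libraries (horizontal) for 12875 genes; red points are the 241 genes called higher in SHR, blue points the 148 called lower, grey points the rest. Rises and falls occur at every level, and among abundant transcripts Pecr rose while Retsat, Ctsl and Lamp2 fell.

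Some called genes lay side by side in the genome. In the order of the reference table, 367 of the called genes could be placed among 12398 tested genes, and 66 of them (17.98%) had a called gene as the adjacent tested gene, beside 5.68% of all tested genes. With 1 tested gene allowed in between the shares were 24.8% and 10.6%. The 66 genes formed 27 runs, 20 of them pairs; in 16 runs all members moved one way and in 11 they moved both ways. Neighbours can share reads where their transcripts overlap, and whether the authors' counting used strand is not given in the sources used here.

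On chromosome 1, Eri2, Acsm3 and Rexo5 were adjacent in reference order and rose together. On GRCr8 Eri2, on the minus strand, runs across the start of Acsm3 on the plus strand, so these genes overlap. Whether they shared reads was not tested. Eri2 encodes an exonuclease of the ERI family. It was at 11.1, 6.84 and 9.94 FPKM in WKY and 96, 102 and 144 FPKM in SHR, a log2 change of 3.48 (SE 0.26, adjusted p = 0.000148). Rexo5, another RNA exonuclease, was at 0.98, 0.63 and 1.06 FPKM in WKY and 9.71, 12.8 and 5.43 FPKM in SHR (a log2 change of 2.39, SE 0.28). In WKY only library 3 reached 1 FPKM, so Rexo5 entered the test through SHR, where it is high, and its values are a description. The lowest SHR library lay over 5 times the highest WKY library for both genes. Acsm3, a mitochondrial enzyme that activates medium-chain fatty acids, rose by 4.24 (SE 0.30). The printed windows of Rexo5 and Eri2 share 168 bases and hold 34 and 33 CG dinucleotides, a number reached by 6.82% and 7.53% of the 33469 windows of the reference; the median is 7. The Acsm3 window holds none, as do 5.47% of windows.

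Pecr and Tmem169 stood back to back on chromosome 9 and rose by similar amounts. Pecr, a peroxisomal reductase that completes a step of fatty acid chain elongation, was at 139.6, 187 and 158 FPKM in WKY and 479, 468 and 457 FPKM in SHR, a log2 change of 1.54 (SE 0.21, adjusted p = 0.00612). Tmem169, a membrane protein of no assigned function, was at 1.81, 2.15 and 2.12 FPKM in WKY and 6.67, 6.5 and 8.09 FPKM in SHR (1.41, SE 0.20, adjusted p = 0.00708). For both, every SHR library lay above every WKY library. Their windows share 156 bases and hold 19 CG dinucleotides each, reached by 25.8% of windows.

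Back-to-back starts were counted over the whole table. Among the 10156 tested genes with a start window, 430 pairs had overlapping windows on opposite strands. Both members were called in 2 pairs, those shown, and 1 member in 14, of which the other member had an estimate of the same sign in 13. Over all 430 pairs, 3.72% held a called gene and 61.63% had estimates of the same sign. One of these is Retsat, described below, whose partner Elmod3 had a log2 change of -0.18 (adjusted p = 0.379) against -1.25 for Retsat, although their windows share 271 bases. A search of the printed windows on both strands found CACGTG (the E-box core) once in the shared bases of Tmem169 and Pecr and in none of the other 3 windows, against 6.42% of all windows. The letters CCGGAAG, or CTTCCGG on the other strand, the core bound by ETS factors, occurred at 2 places in the bases shared by Rexo5 and Eri2, against 8.74% of windows with a match. The GC box GGGCGG, or CCGCCC, occurred at 2 places in the bases shared by Tmem169 and Pecr and once in the Rexo5 window, across the edge of the bases it shares with Eri2, against 33.1% of windows. These matches describe the letters only.

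Other runs held genes of related families. Setd4, a lysine methyltransferase, and the carbonyl reductases Cbr1 and Cbr3, which reduce quinones and other carbonyl compounds, formed a run of 5 with 2 placeholder genes, and all 5 rose. These 5 were tested through SHR alone. Cbr3 was listed at 0 FPKM in the 3 WKY libraries but reached 4.01, 3.44 and 4.85 FPKM in SHR. In WKY the Setd4 libraries held 0.05, 0 and 0.01 FPKM, against 6.22, 5.35 and 6.71 FPKM in SHR. A further run consisted of 4 placeholder genes, with log2 changes between 2.39 and 4.74; the call of the member at 2.39 was lost without WKY 1, WKY 3 or SHR 2. That member and the one at 4.56 were tested through SHR alone.

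Claudins and a cytokine receptor stood together on the reference. Tnfrsf12a, the receptor of the cytokine TWEAK, was at 19, 21.6 and 21.9 FPKM in WKY and 43, 44.5 and 36.6 FPKM in SHR (0.95, SE 0.11, adjusted p = 0.00202). The adjacent Cldn6, a tight junction protein best known from embryonic epithelia, was at 5.56, 8.53 and 6.91 FPKM in WKY and 24.7, 23.6 and 29.6 FPKM in SHR (1.76, SE 0.14, adjusted p = 0.000222). Its close relative Cldn9 was at 3.29, 4.36 and 1.99 FPKM in WKY and 11.8, 8.55 and 13.5 FPKM in SHR (1.56, adjusted p = 0.00876). None of these groups overlapped. Cldn6 and Cldn9 are similar single-exon genes, so how reads were divided between them is uncertain.

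In other runs the directions were mixed. Lcat, which esterifies cholesterol on lipoproteins, and Slc12a4, a potassium-chloride cotransporter of cell volume control, rose by 0.98 and 0.74, while their neighbour Dpep2, a dipeptidase of leukotriene metabolism, was lower by a log2 change of -0.99 and tested through WKY alone. The calls for Lcat and Slc12a4 were lost without any of WKY 1, WKY 3, SHR 1, SHR 2 or SHR 3, and that for Slc12a4 also without WKY 2. Ormdl1, a regulator of sphingolipid synthesis, was at 34.8, 37.9 and 41.4 FPKM in WKY and 61.9, 70.3 and 77.4 FPKM in SHR (0.86, adjusted p = 0.00339), and Hibch, an enzyme of valine breakdown in the same run, was at 14.9, 15.1 and 13.8 FPKM in WKY and 24.4, 20.9 and 21.8 FPKM in SHR (0.58, adjusted p = 0.00669). A placeholder gene between them fell by 1.31 on the log2 scale, a call lost without any of the 6 WKY and SHR libraries or treated SHR library 3. Clu, which encodes the secreted chaperone clusterin, fell by 1.23 next to Ephx2, the soluble epoxide hydrolase, which rose by 3.31.

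Topaz1 and Tcaim fell side by side. Topaz1, known from germ cells, was at 5.7, 5.08 and 5.48 FPKM in WKY and at or under 0.03 FPKM in SHR, tested through WKY alone. Tcaim, a mitochondrial protein of T cell regulation, was at 89.4, 59 and 73.7 FPKM in WKY and 34.3, 33 and 34.4 FPKM in SHR (-1.08, adjusted p = 0.0219), and its call was lost without WKY 1, WKY 3, SHR 1, SHR 2 or SHR 3. Crot, the peroxisomal carnitine octanoyltransferase, fell beside Abcb1b, a multidrug efflux pump. Crot was at 51.2, 41.2 and 48.8 FPKM in WKY and 28.1, 27.8 and 25.1 FPKM in SHR (-0.78, adjusted p = 0.0046). Abcb1b was at 5.39, 1.73 and 4.72 FPKM in WKY and 0.51, 0.29 and 0.43 FPKM in SHR (a log2 change of -1.72); tested through WKY alone and chosen after its values were seen, it has a close copy, Abcb1a, and its call was lost without WKY 1, WKY 3, SHR 1, SHR 2 or SHR 3.

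**Figure D2:**
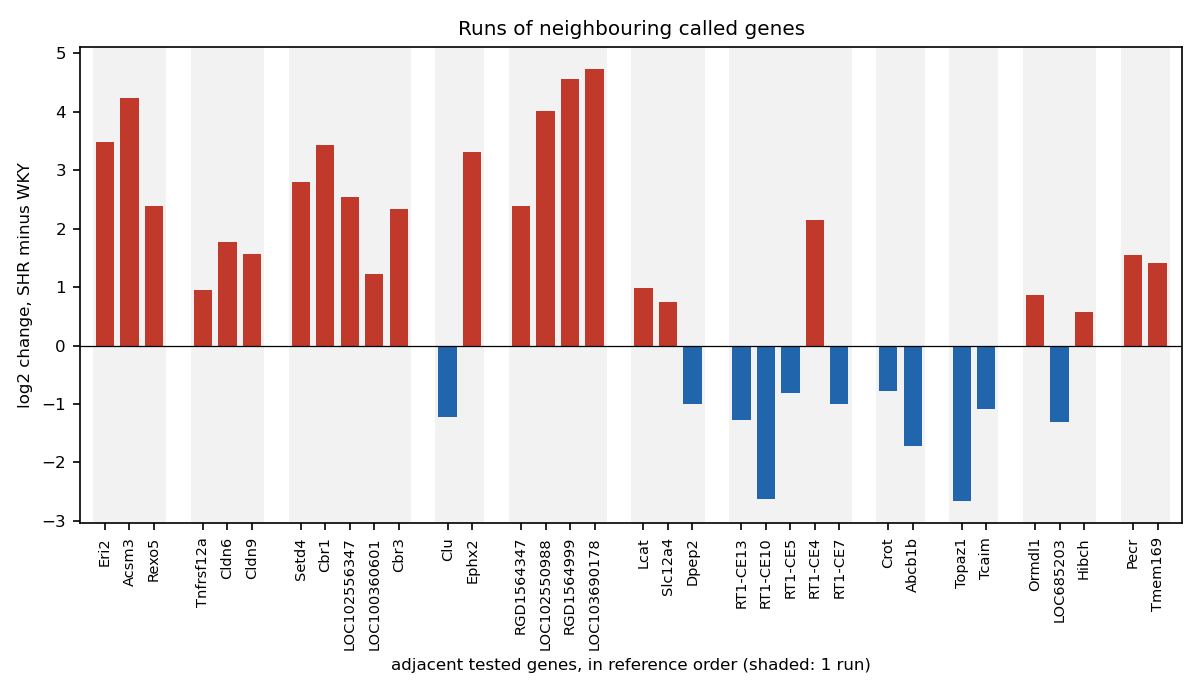
Log2 change (SHR minus WKY, bars from 0) of called genes that are adjacent among tested genes, in reference order; each shaded block is 1 run, and all runs of 3 or more genes and 4 pairs are drawn. Some blocks hold bars of one direction, such as Eri2, Acsm3 and Rexo5, and others hold both, such as Clu beside Ephx2.

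A count with no test described transcripts near absence in 1 line. Under 0.5 FPKM in all libraries of 1 line and at 3 FPKM or more in all of the other stood 17 genes, 13 near 0 in WKY and 4 near 0 in SHR. The 4 were H2bc12, Hba-a3, Topaz1 and Ros1, and of the 13, 7 carry placeholder names. Ros1, an orphan receptor tyrosine kinase, was at 4.98, 3.92 and 3.08 FPKM in WKY and 0.4, 0.46 and 0.42 FPKM in SHR; it was chosen after its values were seen. All 17 were called and all were tested through 1 line alone, as the rule by which they were counted requires a large difference. The reference build comes mainly from Brown Norway, another inbred line, and whether sequence differences from it change the values of these genes was not tested.

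Retsat, Ctsl and Lamp2 were among the abundant transcripts that fell. Retsat, which saturates retinol, was at 417, 284 and 336 FPKM in WKY and 135, 149 and 146 FPKM in SHR, a log2 change of -1.25 (SE 0.15, adjusted p = 0.00339). Ctsl, the lysosomal protease cathepsin L, was at 1109, 871 and 1097 FPKM in WKY and 442, 511 and 513 FPKM in SHR (-1.06, SE 0.16, adjusted p = 0.0106), with the call lost without WKY 3 or SHR 1. Lamp2, a lysosomal membrane protein, was at 244, 208 and 224 FPKM in WKY and 159.6, 149.7 and 164 FPKM in SHR (-0.51, adjusted p = 0.0166), lost without WKY 1, WKY 3, SHR 1 or SHR 2. In each of these genes the lowest WKY library was above the highest SHR library, by the narrowest margin for Lamp2.

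Other called genes with lysosomal products were picked out after their values were seen, and no list of lysosomal genes was counted. Neu1, the lysosomal sialidase, was at 97.5, 90.4 and 90.7 FPKM in WKY and 53.7, 61.5 and 58.6 FPKM in SHR (-0.67, adjusted p = 0.028). Sppl2a, an intramembrane protease of endosomes and lysosomes, fell by 0.54 (adjusted p = 0.00993), and Mfsd1, a lysosomal transporter, fell by 0.68 (adjusted p = 0.0213). Slc49a4, a lysosomal vitamin carrier, was at 31.6, 30.9 and 32.1 FPKM in WKY and 21.9, 20.6 and 20.6 FPKM in SHR (-0.56, adjusted p = 0.00396), and its groups were far apart for their spread. Creg1, a secreted and lysosomal glycoprotein, went the other way, from 29.6, 27.4 and 27.3 FPKM in WKY to 43.4, 50.9 and 46.1 FPKM in SHR (0.71, adjusted p = 0.00322). The call for Neu1 was lost without any of the 6 WKY and SHR libraries, that for Mfsd1 without WKY 1, WKY 3, SHR 1, SHR 2 or SHR 3, and that for Sppl2a without WKY 3.

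Besides Pecr, given above, another gene with a peroxisomal product rose, and Crot, also peroxisomal, fell. Pxmp4, a peroxisomal membrane protein, was at 39.6, 28.7 and 28.1 FPKM in WKY and 74.5, 75.4 and 67.3 FPKM in SHR (1.16, SE 0.16, adjusted p = 0.00528). In the list of fatty acid oxidation genes, 0 of 37 tested members rose and 2 fell, Crot and Cpt1b (the latter lost without WKY 1, WKY 3, SHR 1, SHR 2 or SHR 3); the list's median log2 change was 0.00, beside 0.07 for all genes tested. Of the 21 genes of fatty acid uptake and activation, 1 rose and 1 fell (9.52%, beside 3.02% of all genes). Of the 24 genes of cholesterol synthesis 3 fell (12.5%), among them Sc5d, a desaturase late in the pathway, by 0.30. The call for Sc5d was lost without any of the 6 WKY and SHR libraries or treated SHR library 2 or 3. Vldlr, a lipoprotein receptor outside these lists and chosen after its values were seen, fell from 8.07, 9.49 and 8.57 FPKM in WKY to 5.14, 4.91 and 5.04 FPKM in SHR (-0.68, adjusted p = 0.00807). Pfkl, the liver-type phosphofructokinase, was the 1 of 27 tested glycolysis and gluconeogenesis genes that changed: it was at 21.1, 17.6 and 18.7 FPKM in WKY and 29.9, 31.3 and 34 FPKM in SHR (0.70, adjusted p = 0.00539).

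**Figure D3:**
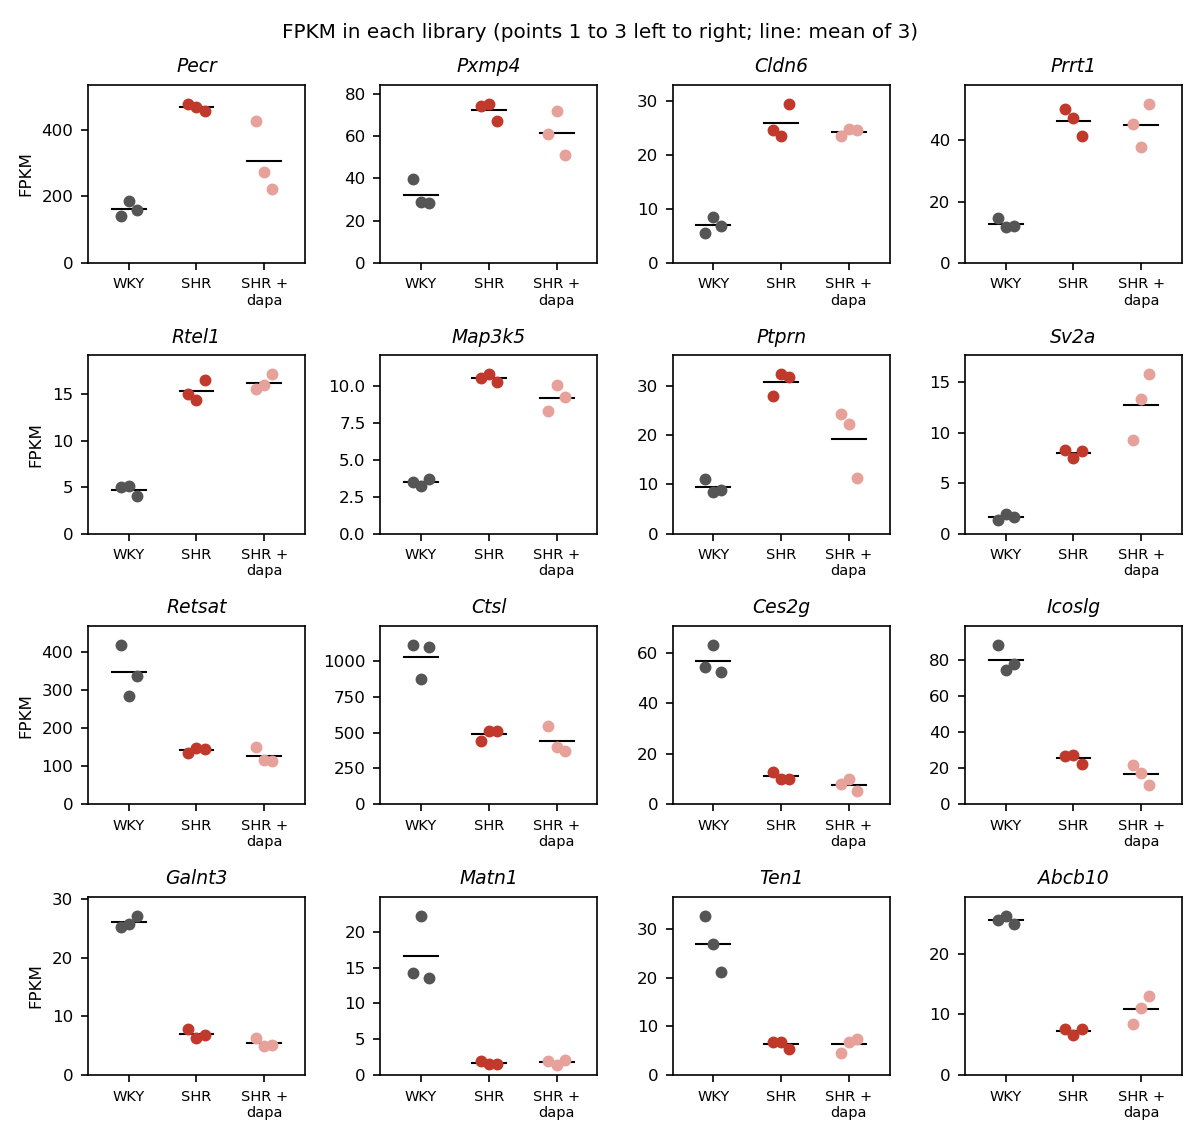
FPKM (vertical, from 0) of 16 called genes in each library, with 3 points for each of WKY, SHR and SHR given dapagliflozin (SHR + dapa) and a line at each mean. The SHR points of Pecr sit between 457 and 479 FPKM and its WKY points between 139.6 and 187 FPKM; for the lower 8 genes every WKY point lies above every SHR point.

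Ces2g fell and Ugt2b7 rose. Ces2g, a carboxylesterase, was at 54.6, 63.1 and 52.3 FPKM in WKY and 12.9, 10.2 and 10 FPKM in SHR (-2.26, SE 0.19, adjusted p = 0.000336). Ugt2b7, which couples glucuronic acid to steroids and drugs, was at 1.32, 1.61 and 1.75 FPKM in WKY and 16.4, 7.3 and 9.52 FPKM in SHR (2.17, adjusted p = 0.00437). The groups of both genes were well separated, though both belong to families of similar genes that can exchange reads. In the list of glutathione and redox defence, 2 of 49 tested genes rose and 2 fell (8.16%, beside 3.02% of all genes). Srxn1, which repairs peroxiredoxins, was at 6.98, 8.87 and 7.68 FPKM in WKY and 14.8, 12.7 and 16.3 FPKM in SHR (0.82, adjusted p = 0.0168), lost without WKY 1, WKY 3, SHR 1 or SHR 3. Of 18 tested glutathione transferases 3 fell (16.67%), Gstm1 and the adjacent Gsto1 and Gsto2, the latter by 0.40 and 0.49. Those 2 calls were lost without WKY 1, WKY 3, SHR 1, SHR 2, SHR 3 or treated SHR 2, and that of Gsto1 also without WKY 2. Of 33 tested cytochrome P450 genes 1 was called, Cyp8b1 of bile acid synthesis, which was tested through SHR alone and lost its call without WKY 1, WKY 2, WKY 3, SHR 1 or SHR 2.

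Of 43 tested members in 4 lists of blood pressure systems 1 was called (2.33%), beside 3.02% of all genes. The 4 lists are those of the renin-angiotensin system, kinins, endothelin with nitric oxide and natriuretic peptides, and catecholamines. The count leaves out lipid mediators and steroid response. Of 30 tested arachidonic acid genes 3 rose and 0 fell (10%). Of 16 tested glucocorticoid and mineralocorticoid response genes 2 rose and 0 fell (12.5%). Of 12 tested genes of the renin-angiotensin system, 0 were called at an adjusted p under 0.05 in limma, 1 had an unadjusted p under 0.05 (19.59% of all genes had) and 1 had non-overlapping lines; their median log2 change was 0.02. Agt, the precursor of angiotensin, was at 70.1, 47.1 and 66.2 FPKM in WKY and 28.2, 45 and 47 FPKM in SHR, with an interval of the log2 change from -1.77 to 0.54. Ace, the converting enzyme, was at 2.84, 0.84 and 1.77 FPKM in WKY and 1.21, 1.04 and 0.89 FPKM in SHR, and Agtr1a, the main angiotensin receptor, had an interval from -0.42 to 0.52. The interval of Agt is wide: it includes a 2-fold fall in SHR, though not a 2-fold rise.

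Of 5 tested genes of the kinin system 1 was called, Bdkrb2, the receptor of bradykinin, tested through SHR alone and at 0.63, 0.53 and 0.35 FPKM in WKY and 2.02, 2.27 and 2.58 FPKM in SHR. Klk1, the kallikrein that releases kinins in the distal nephron, was at 677, 1115 and 715 FPKM in WKY and 1133, 983 and 1333 FPKM in SHR and did not pass (adjusted p = 0.412). Klk1c2, a kallikrein relative with many close copies, was at 2.2, 2.85 and 2.48 FPKM in WKY and 0, 0 and 0.13 FPKM in SHR (a log2 change of -1.75) and was tested through WKY alone. Of the 13 tested genes for endothelin, nitric oxide and natriuretic peptides 0 were called in limma. An unadjusted p under 0.05 was seen for 5 of them (19.59% of all genes had). All SHR libraries lay above all WKY libraries for 6, as for 20.2% of all genes. Nos3, the endothelial nitric oxide synthase, was at 1.57, 2.5 and 2.32 FPKM in WKY and 4.18, 3.6 and 4.5 FPKM in SHR (adjusted p = 0.0523), and Npr1, a natriuretic peptide receptor, at 2.48, 5.44 and 3.76 FPKM in WKY and 8.11, 6.26 and 9.36 FPKM in SHR (adjusted p = 0.121). Ednrb, the endothelin B receptor, was at 4.14, 8.49 and 8.19 FPKM in WKY and 15.4, 11.3 and 14.6 FPKM in SHR (adjusted p = 0.132).

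Endothelial cell markers stood beside these: 12 of 13 estimates were above 0, the median was 0.44, and the summed FPKM was 150.7 to 338.4 in WKY and 273.8 to 405.9 in SHR. Their 1 call was Vwf, the clotting protein of endothelium, which fell from 11.3, 6.54 and 9.77 FPKM in WKY to 2.05, 2.43 and 2.08 FPKM in SHR (-1.65, adjusted p = 0.0114), lost without WKY 1, WKY 3, SHR 1 or SHR 3. By mean log2 level, WKY library 1 stood lowest on the endothelial list, at 3.39. Levels of 4.29 (WKY library 2) and 4.17 (WKY library 3) fell inside the SHR range, which ran from 4.01 to 4.50. Apart from WKY library 1, the level of this list thus overlapped between the lines. The part of these endothelial markers in the values of Nos3, Ednrb and Nostrin was not tested.

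Nostrin, which binds endothelial nitric oxide synthase and is outside that list, rose: it was at 3.61, 6.11 and 5.57 FPKM in WKY and 16.3, 11.5 and 17.8 FPKM in SHR (1.42, adjusted p = 0.00769). It was chosen after its values were seen, as were Pde1b and Npy. Pde1b, a calcium-dependent phosphodiesterase of cyclic nucleotides, was at 1.82, 3.16 and 2.35 FPKM in WKY and 7.48, 7.39 and 8.78 FPKM in SHR (1.38, adjusted p = 0.00585). Npy, a peptide of sympathetic nerves, was at 4.81, 6.14 and 9.61 FPKM in WKY and 20.3, 17.1 and 21.3 FPKM in SHR (1.43, adjusted p = 0.00595). In all 3 genes the highest WKY library stayed below the lowest SHR library. Of 13 tested catecholamine receptor and dopamine genes 0 were called in limma and 3 had an unadjusted p under 0.05.

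Solute carriers and potassium channels were called at shares near the background. Of 276 tested solute carriers 5 rose and 3 fell, 2.90% of the family against 3.02% of all genes. Slc9a9, an endosomal sodium-proton exchanger, was at 1.21, 2.1 and 1.57 FPKM in WKY and 4.66, 4.48 and 6.28 FPKM in SHR (1.23, SE 0.17, adjusted p = 0.00702). Slc43a1, a carrier of branched amino acids, was at 2.64, 3 and 1.9 FPKM in WKY and 7.18, 5.38 and 7.63 FPKM in SHR (1.14, adjusted p = 0.0209), lost without WKY 1, WKY 3, SHR 1 or SHR 3. Of 27 tested potassium channel genes 1 was called (3.70%). It was Kcne2, tested through WKY alone, a subunit that modulates potassium channels of epithelia and heart, at 3.71, 1.81 and 3.14 FPKM in WKY and 0.2, 0.24 and 0.15 FPKM in SHR (a log2 change of -1.67). Abcb10, a mitochondrial transporter tied to haem synthesis, was at 25.6, 26.2 and 24.9 FPKM in WKY and 7.53, 6.6 and 7.51 FPKM in SHR (-1.70, SE 0.13, adjusted p = 0.000233), with little spread in either line.

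Prrt1, Ptprn and Sv2a, best known from neurons and endocrine cells, rose. Prrt1, a membrane protein of synapses, was at 14.7, 11.7 and 12 FPKM in WKY and 50.4, 47.4 and 41.6 FPKM in SHR (1.78, SE 0.13, adjusted p = 0.000179). Ptprn, a protein of dense-core secretory vesicles, was at 11, 8.34 and 8.88 FPKM in WKY and 27.9, 32.3 and 31.9 FPKM in SHR (1.61, adjusted p = 0.00902). Sv2a, a synaptic vesicle glycoprotein, was at 1.38, 1.96 and 1.61 FPKM in WKY and 8.31, 7.47 and 8.21 FPKM in SHR (1.77, adjusted p = 0.000938). The SHR libraries of each gene lay together and apart from WKY. Prnp, the prion protein, was at 5.1, 11.2 and 8.09 FPKM in WKY and 26.8, 21 and 28.4 FPKM in SHR (1.58, adjusted p = 0.00854). No list of neuronal genes was counted, and Grik2, a kainate receptor subunit, was lower and tested through WKY alone, from 1.4, 2.22 and 2.05 FPKM in WKY to 0.08, 0.08 and 0 FPKM in SHR; Prnp and Grik2 were chosen after their values were seen. The adrenal medulla marker Th was at 0 in all 6 libraries.

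Rtel1 rose and Ten1 fell. Rtel1, a helicase that protects telomeres, was at 5, 5.14 and 4.06 FPKM in WKY and 15, 14.4 and 16.5 FPKM in SHR (1.51, SE 0.10, adjusted p = 7.12e-05). Ten1, a subunit of the CST complex that caps telomeres, was at 32.7, 26.8 and 21.1 FPKM in WKY and 6.82, 6.85 and 5.37 FPKM in SHR (-1.91, SE 0.19, adjusted p = 0.00125). Of genes chosen after their values were seen, Lig4, the ligase of end joining, was at 3.45, 2.94 and 3.32 FPKM in WKY and 9.38, 7.48 and 9.43 FPKM in SHR (1.20, adjusted p = 0.000571). Rad51d, a recombination protein, was at 25.1, 22.1 and 23.9 FPKM in WKY and 13.4, 13.1 and 13.3 FPKM in SHR (-0.79, adjusted p = 0.000565), and Mdc1, a scaffold at broken DNA, fell by 0.89 (adjusted p = 0.00413). None of these genes belongs to the list of DNA metabolism and cell death. In that list 0 of 28 rose and 3 fell (10.71%, beside 3.02% of all genes), namely Dapk2, Endog and Clu.

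Map3k5 and Fkbp5 rose. Map3k5, the stress kinase ASK1, was at 3.48, 3.21 and 3.69 FPKM in WKY and 10.6, 10.8 and 10.3 FPKM in SHR (1.37, SE 0.09, adjusted p = 7.78e-05). Fkbp5, a co-chaperone of steroid receptors that glucocorticoids induce, was at 6.39, 9.93 and 7.09 FPKM in WKY and 15.7, 17.9 and 15.9 FPKM in SHR (1.01, adjusted p = 0.00594). In the list of glucocorticoid and mineralocorticoid response genes 2 of 16 rose and 0 fell (12.5%, beside 3.02% of all genes). The list's median was 0.52, beside 0.07 for all genes, with 14 estimates above 0. Sgk1, an aldosterone-induced kinase, was at 24.1, 53.3 and 42 FPKM in WKY and 89, 92.8 and 80.5 FPKM in SHR and did not pass (adjusted p = 0.218). Fkbpl, a related co-chaperone chosen after its values were seen, was at 10.8, 11.3 and 11.4 FPKM in WKY and 19.2, 23.6 and 22.8 FPKM in SHR (0.90, adjusted p = 0.00257). Rarres2, which encodes the adipokine chemerin and was also chosen so, was at 15.2, 16.9 and 11.2 FPKM in WKY and 37.6, 32.4 and 47.6 FPKM in SHR (1.38, adjusted p = 0.00696).

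Galnt3, Matn1 and Tas1r1 also fell. Galnt3, which starts mucin-type sugar chains and protects the phosphate hormone FGF23 from cleavage, was at 25.3, 25.8 and 27.1 FPKM in WKY and 7.8, 6.25 and 6.87 FPKM in SHR (-1.77, SE 0.11, adjusted p = 5.12e-05). Matn1, a cartilage matrix protein, was at 14.2, 22.2 and 13.6 FPKM in WKY and 1.97, 1.48 and 1.53 FPKM in SHR (-2.70, adjusted p = 0.000122). Tas1r1, a subunit of the umami taste receptor, was at 26.4, 41.9 and 29.2 FPKM in WKY and 10, 9.9 and 8.81 FPKM in SHR (-1.64, adjusted p = 0.000852). The 3 genes showed tight SHR values and more spread in WKY for Matn1 and Tas1r1. Of 28 tested genes of phosphate, calcium and vitamin D handling 0 were called in limma, as were 0 of 41 genes of extracellular matrix and fibrosis; 3 genes of each list had an unadjusted p under 0.05, and the medians were 0.14 and 0.15. Col1a1, the main fibrillar collagen, was at 1.77, 1.58 and 1.15 FPKM in WKY and 4.7, 2.41 and 3.8 FPKM in SHR and did not pass (adjusted p = 0.0784), and Tgfb1 had an interval of the log2 change from -0.29 to 0.77.

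Icoslg and F2 fell. Icoslg, the ligand of the T cell costimulator ICOS, was at 88.2, 74.2 and 77.8 FPKM in WKY and 26.9, 27.2 and 22.5 FPKM in SHR (-1.61, SE 0.22, adjusted p = 0.00585). F2, which encodes prothrombin, was at 24, 17.5 and 21.9 FPKM in WKY and 2.68, 4.4 and 5.38 FPKM in SHR (-2.13, adjusted p = 0.00728). In the list of complement and coagulation 1 of 39 tested genes rose and 2 fell (7.69%, beside 3.02% of all genes). The gene that rose was tested through SHR alone, so it had to differ. F13b, a carrier subunit of clotting factor XIII not in that list, was at 2.61, 4.96 and 2.72 FPKM in WKY and 13.6, 13.4 and 10.6 FPKM in SHR (1.64, adjusted p = 0.0238), lost without WKY 1, WKY 3, SHR 1, SHR 2 or SHR 3. Of the gene families counted by symbol, the histocompatibility genes had the highest share of calls, 4 of 27 higher and 6 lower, 37.04% against 3.02% of all genes; these are near-identical copies that differ between inbred lines, and how reads were divided among them is uncertain. RT1-CE2 was at 2.72, 3.94 and 3.79 FPKM in WKY and 44.4, 37.6 and 38.7 FPKM in SHR, while RT1-N2 was at 28.9, 35.2 and 30 FPKM in WKY and 3.12, 2.28 and 2.19 FPKM in SHR. The machinery that loads these molecules gave 0 calls in limma of 12 genes, 2 of them with an unadjusted p under 0.05; B2m, their common light chain, was at 382, 445 and 466 FPKM in WKY and 419.5, 330.3 and 332 FPKM in SHR (adjusted p = 0.278). Interferon-stimulated genes gave 1 rise and 2 falls of 40 (7.5%), with a median of -0.16. The rise was of a gene tested through SHR alone, which had to differ.

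**Figure D4:**
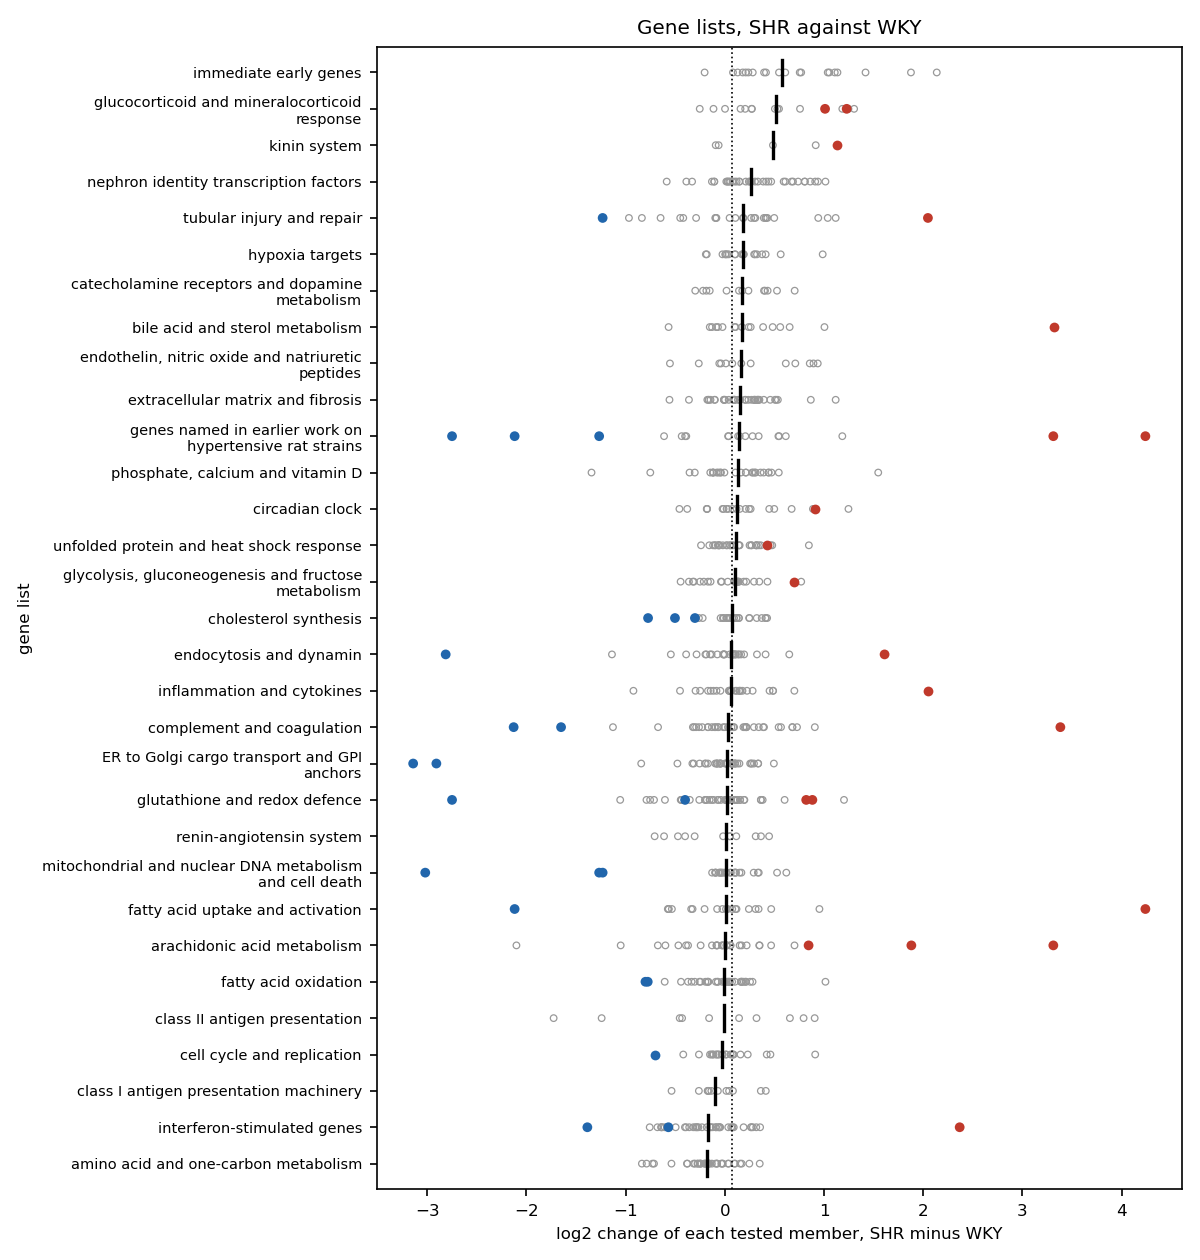
Log2 change (SHR minus WKY, horizontal) of each tested member of 31 gene lists (vertical); open circles did not pass, red and blue points were called higher and lower, the bar is the list's median and the dotted line the median of all genes tested, 0.07. Most members of most lists did not pass, and the list medians lie between -0.18 and 0.58.

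Marker lists of the collecting duct and the podocyte had medians above that of all genes, and that of the late proximal tubule lay below it, though few members passed. Medians were also above it for distal convoluted tubule (0.35), inner medulla (0.43), endothelial cell (0.44), and smooth muscle and mesangial markers (0.33). Those of early proximal tubule (-0.16) and leukocyte markers (-0.04) were below it. In bulk tissue, fewer cells of a type and less RNA per cell cannot be told apart. All 15 intercalated cell markers had estimates above 0, and for 12 all SHR libraries lay above all WKY libraries (20.2% of all genes). However, 0 were called in limma. An unadjusted p under 0.05 was seen for 12 (19.59% of all genes had). The list's median log2 change was 0.74, beside 0.07 for all genes. Foxi1, the transcription factor of intercalated cells, was at 43.2, 53 and 42.1 FPKM in WKY and 65.9, 67.2 and 134 FPKM in SHR (adjusted p = 0.158). Of 13 principal cell markers 2 rose (15.38%, beside 3.02% of all genes called) and 11 had estimates above 0, with a median of 0.74. Aqp2, the vasopressin-regulated water channel, was at 191, 385 and 279 FPKM in WKY and 448, 502 and 519 FPKM in SHR and did not pass (adjusted p = 0.159). The 2 called were Aqp3, at 36.6, 59.8 and 41 FPKM in WKY and 135, 137 and 135 FPKM in SHR, and Fxyd4, whose call was lost without WKY 1 or SHR 2.

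Podocyte markers had a median of 0.79, with 13 of 14 estimates above 0 and 0 called in limma. An unadjusted p under 0.05 was seen for 9 of them (19.59% of all genes had). Without WKY library 1 the podocyte median was 0.47, the principal cell median 0.59 and the intercalated cell median 0.61. Late proximal tubule markers had a median of -0.44, with 13 of 15 estimates below 0, 0 called in limma and 2 at an unadjusted p under 0.05. Slc7a13, an amino acid carrier of that segment, was at 1624, 658 and 1520.0 FPKM in WKY and 549, 699.9 and 499 FPKM in SHR. Its values in WKY libraries 1 and 3 were well above the rest, and that of WKY library 2 lay within the range of SHR. Early proximal tubule markers had a median of -0.16 with 1 of 19 called, the sodium-proton exchanger Slc9a3, which rose and lost its call without WKY 1, WKY 3, SHR 1 or SHR 2, and thick ascending limb markers 0.22 with 0 of 13 called in limma and 1 at an unadjusted p under 0.05. Leukocyte markers had a median of -0.04, and their summed levels overlapped between lines, with a summed FPKM of 103.9 to 250.4 in WKY and 111.4 to 361.5 in SHR. Of 7 tested red cell and platelet markers 2 rose and 1 fell (42.86%, beside 3.02% of all genes). The fall and 1 of the rises were of genes tested through 1 line alone, so this share is a description. Pf4, a platelet chemokine, was at 1.45, 3.03 and 0.9 FPKM in WKY and 10.7, 6.57 and 10.4 FPKM in SHR (adjusted p = 0.014), lost without WKY 1, WKY 3, SHR 1 or SHR 3, and Ahsp, a haemoglobin chaperone, was at 0.31, 0.48 and 0.63 FPKM in WKY and 1.78, 1.42 and 1.35 FPKM in SHR, tested through SHR alone, and lost its call without any of the 6 WKY and SHR libraries. Hba-a3, a haemoglobin copy tested through WKY alone, was at 22.2, 29.1 and 44.7 FPKM in WKY and 0.49, 0 and 0.24 FPKM in SHR, whereas the abundant Hba-a1 overlapped between lines, at 1458 to 3229 FPKM in WKY and 1978 to 3076 FPKM in SHR. These shifts stand beside every call above, and their part in any single gene's difference was not tested.

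**Figure D5:**
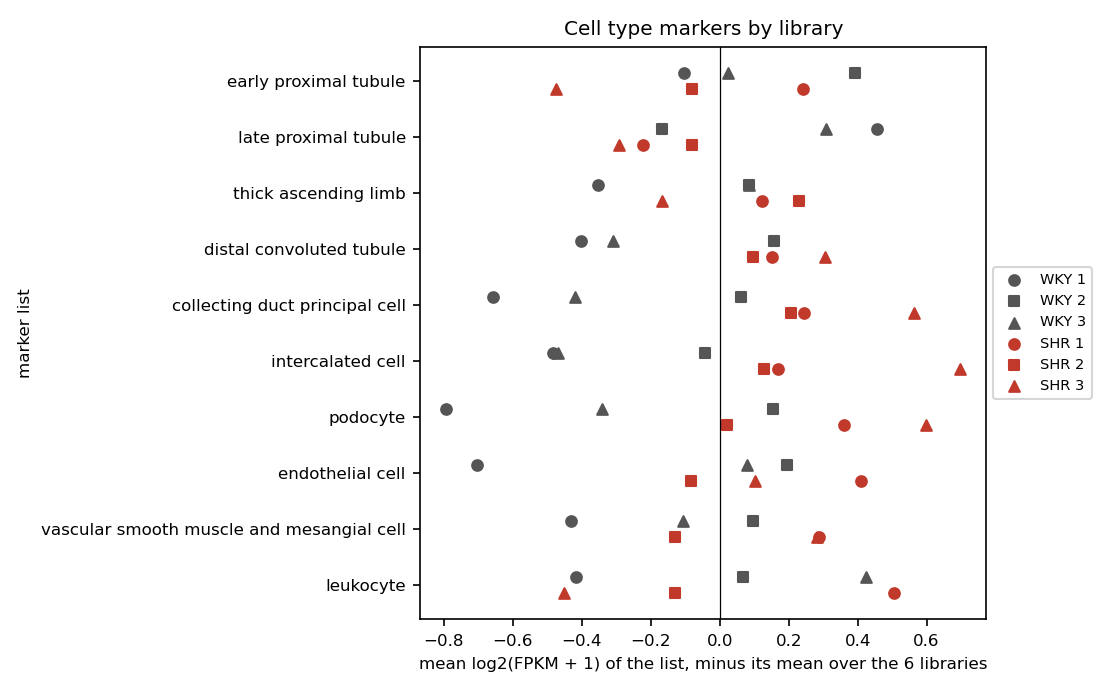
Mean log2(FPKM + 1) of each marker list in each library, minus the list's mean over the 6 libraries (horizontal), for 10 lists (vertical); grey symbols are WKY, red symbols SHR, and the shape gives the library number. For the intercalated and principal cell lists all SHR libraries lie to the right of all WKY libraries, and WKY library 1 is furthest left for podocyte and endothelial cell lists.

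Most genes of ribosomes, respiratory complexes and proteasomes had narrow intervals. Of 93 tested ribosomal protein genes 1 was called and 79 had an interval within ±0.5; the called one, Rps9l1, is a copy of another ribosomal gene, and its call was lost without WKY 1, WKY 3, SHR 1, SHR 2, SHR 3 or treated SHR 2. All 16 ATP synthase subunits and all 33 subunits of cytochrome oxidase and the cytochrome bc1 complex gave 0 calls in limma; 0 and 2 of them had an unadjusted p under 0.05, and 15 and 24 had an interval within ±0.5. Of 46 complex I genes 1 was called higher and 1 lower and 42 had an interval within ±0.5. The higher one, Ndufa10l1, a copy of the subunit gene Ndufa10, was at 0.29, 0 and 0 FPKM in WKY and 40, 35.2 and 32.2 FPKM in SHR and was tested through SHR alone. The lower one was Ndufa10 itself, by a log2 change of -0.43, lost without WKY 2, WKY 3, SHR 1, SHR 2 or SHR 3; how reads were divided between the copies is uncertain. Of 49 proteasome subunits 0 were called in limma, 1 had an unadjusted p under 0.05 and 43 had an interval within ±0.5. The transcription factors of nephron identity gave 0 calls in limma of 38, with 15 at an unadjusted p under 0.05 (19.59% of all genes had). Of their estimates 32 were above 0, with a median of 0.26 beside 0.07 for all genes, and 4 intervals lay within ±0.5. Hnf4a, which sets proximal tubule identity, was at 216, 167 and 163 FPKM in WKY and 184, 212 and 186 FPKM in SHR, and Pax8 at 113, 120.1 and 126 FPKM in WKY and 106, 136 and 95.1 FPKM in SHR; the lines overlapped for both. Amino acid and one-carbon metabolism gave 0 calls in limma of 37, with 2 at an unadjusted p under 0.05, 29 estimates below 0, a median of -0.18 and 4 intervals within ±0.5.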

How the data were processed

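Kidney RNA of 9 rat libraries, 3 in each group, was sequenced as single-end reads per the labels' protocols. The authors deposited FPKM values, 1 column per library per the file headers, rounded to 2 decimals. The submitters' processing notes name HISAT2 2.0.4, Bowtie2 2.2.5 and the build Rnor_6.0. Which tool did what, the annotation, the counting program and its use of strand are not given there or in the labels used here. Low values showed no clear common step, so read depth is unknown and no counting interval can be given. FPKM shares 1 total per library, so a few abundant transcripts can shift all others, and reads are measured against a reference line that is neither SHR nor WKY.

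Genes with at least 1 FPKM in at least 3 of the 6 WKY and SHR libraries were tested on log2(FPKM + 1), a scale that understates changes of weak genes, with limma 3.58.1 in R 4.3.3: a model of 3 group means over 9 libraries (6 residual degrees of freedom), a variance prior that follows intensity, a two-sided test and Benjamini-Hochberg adjustment over all 12875 genes. Python 3.11.15 with pandas 2.3.3, numpy 2.4.6 and matplotlib 3.10.9 made counts and plots. The test was checked on simulated data. Members and lists were chosen with earlier results of these data known. Genes named follow a rule: among called genes with proper symbols, the 25 largest rises and falls, the 15 largest differences in FPKM and the 15 smallest p-values in each direction, up to 5 called members per list, runs of neighbours and close copies, and in lists with no call the 3 most abundant members; others are marked as chosen after their values were seen or stand as values of uncalled list members. The reference table of assembly GRCr8 was used for gene order and for the overlap of Eri2 with Acsm3, and start windows are from RefSeq on GRCr8. Whether called neighbours overlap on Rnor_6.0 was not looked at. Alternatives were other pseudocounts, filters, scalings, models and each library left out. Some list members are not reported here.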

Additional observations from a re-analysis of the deposited data

How the results depend on the processing

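No called gene changed direction under any of the 18 alternative settings. The 66 sign changes counted concerned uncalled genes picked by the rule for named genes, and the other uncalled genes were not followed. Leaving out 1 library at a time gave 169 to 618 called genes, 104 to 402 of them higher and 65 to 216 lower in SHR, and 118 to 206 changes of at least 2-fold. A filter of 5 FPKM left 109 changes of at least 2-fold. Under 0.1 FPKM in the low line, 10 genes stood near 0 against 17. Other settings gave 284 to 505 calls; with only the 6 WKY and SHR libraries in the fit there were 505, and 347 of the 389 were shared. Scaling by the median of ratios gave 218 higher and 199 lower, and quantile normalization 212 and 214. Depth is unknown, so the precision of weak genes rests on the spread between libraries alone.

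With the replicate number as a block in the fit, 283 genes were called (174 higher, 109 lower), 267 of them among the 389. The labels do not say what a shared number means, and same-numbered WKY and SHR libraries did not deviate together (correlations of -0.34 to -0.20, against -0.05 to 0.25 for other pairs of these lines). With the treated SHR libraries included, same-numbered pairs ran from -0.34 to 0.46 and other pairs from -0.54 to 0.34.

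List counts and medians with libraries left out, in other models and under the block, the count of genes with an interval within ±0.5 under other scalings, and the start window counts were added after seeing the data.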

Other observations

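The called genes of this paragraph lie outside the lists and the rule for named genes and were chosen after their values were seen. Mrpl4, a protein of the mitochondrial ribosome, was at 59.8, 68.6 and 57.8 FPKM in WKY and 34.3, 31.1 and 36.4 FPKM in SHR (-0.85, adjusted p = 0.00208 in limma), whereas Pet100, an assembly factor of cytochrome oxidase, was at 41.3, 46.4 and 42.5 FPKM in WKY and 70.1, 79.4 and 84.1 FPKM in SHR (0.83, adjusted p = 0.00174). Nmnat1, which makes NAD in the nucleus, was at 9.05, 10.1 and 10.3 FPKM in WKY and 15.3, 14.7 and 15.9 FPKM in SHR (0.59, adjusted p = 0.00453). The sugar transferases Ggta1 and B4galnt1 differed in opposite directions: Ggta1, which adds terminal galactose, fell by 1.03 and B4galnt1, of ganglioside synthesis, rose by 1.39. Crabp1, a cytosolic carrier of retinoic acid, was at 0.22, 0.12 and 0.23 FPKM in WKY and 2.33, 3.3 and 4.31 FPKM in SHR (a log2 change of 1.83); it reached 1 FPKM in SHR alone, so its selection required a difference.

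Immediate early genes, which cells switch on within minutes of a stimulus, gave 0 calls in limma of 20. An unadjusted p under 0.05 was seen for 9 of them (19.59% of all genes had). Their estimates were above 0 for 19 genes, with a median of 0.58 beside 0.07 for all genes. Their SHR values were scattered. Fos was at 1.87, 7 and 2.29 FPKM in WKY and 29.9, 52.9 and 2.86 FPKM in SHR (adjusted p = 0.224 in limma), Egr1 at 8.02, 22.2 and 25.5 FPKM in WKY and 46.3, 96.9 and 9.72 FPKM in SHR, and Junb at 25.2, 40.3 and 38.2 FPKM in WKY and 78.3, 101 and 24.4 FPKM in SHR. SHR library 2 was the highest of the 6 for all 3 genes, and SHR library 3 fell among the WKY libraries for Egr1 and below them for Junb. The circadian list gave 1 call of 21 (4.76%, beside 3.02% of all genes), and 7 members had an unadjusted p under 0.05 in limma. The call was Usp2, a clock-controlled deubiquitinase at 11.1, 11.8 and 9.69 FPKM in WKY and 17.4, 23.9 and 22.8 FPKM in SHR, lost without any of the 6 WKY and SHR libraries or treated SHR library 2. Per1, a core clock gene, was at 4.5, 6.5 and 4.71 FPKM in WKY and 10.1, 16.2 and 15.4 FPKM in SHR (adjusted p = 0.159); the time of day of sampling is not given in the labels.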
